A study of Mus musculus and Homo sapiens with 8 samples.

Results

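The genes described here are 34 markers and regulators of hematopoietic stem cells, the cells that keep themselves for life and give rise to all blood lineages. The members were given as a list of symbols and were found by name, first letter capital in mouse and all capitals in human. All 34 were listed and tested among 14598 tested genes of mouse LSK cells. In human KU812 cells 32 were listed and 26 were tested among 16529 tested genes, and PRDM16 and NDN were not analysed there. The list was chosen with earlier results of these data known.

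ANP32B is a nuclear histone-binding protein, and its loss was studied by RNA sequencing of 8 libraries. Mouse LSK cells, named for the absence of lineage markers and the presence of Sca-1 and c-Kit, were taken from the bone marrow of C57BL/6 animals, either wild type (WT, n = 2) or Anp32b-KO (KO, n = 2). This sort contains stem cells together with early progenitors. The sources used here do not give the deleted part, what drives the deletion, or the age and pooling of the mice. KU812, an established human line from chronic myelogenous leukemia, received a control hairpin (shNC, n = 2) or 1 directed at ANP32B (shANP32B, n = 2), so that comparison rests on 1 line. The labels do not tell separate animals or cultures from repeat libraries, and each p-value therefore covers only library-to-library spread, part of which may be technical.

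Stem cells are rare and mostly out of cycle, and a few groups of proteins set them apart. Transcription factors such as MECOM, HLF, PRDM16 and ERG hold the stem cell program. Surface proteins such as PROCR, SLAMF1, ESAM and CD34 are used to sort the cells. Angiopoietin 1, made by ANGPT1, binds the receptor kinase TEK, also called TIE2, whose partner is TIE1, and this axis is known for keeping stem cells quiet in the marrow. Many of these genes are also active in endothelial cells, which share an origin with blood.

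Depth was 10549358 to 15683480 counts per LSK library and 24416691 to 28209409 per KU812 library. Levels are given as CPM (counts per 1000000, scaled by the TMM method), on which 3 counts equal 0.196 to 0.286 CPM in the LSK and 0.107 to 0.122 CPM in the KU812 libraries. Anp32b stood at 793 and 730 CPM in WT and at 201 and 248 CPM in KO libraries, and ANP32B at 250 and 285 CPM in shNC and 40.3 and 38.1 CPM in shANP32B libraries. The gate gene Kit (334 to 399 CPM) was read in every LSK library, and Ly6a, which encodes Sca-1, at 60.2 and 45.5 CPM in WT and at 37.8 and 43.4 CPM in KO libraries. Both KO libraries were thus below both WT libraries for Ly6a, where 15.6% of all genes tested were. Its log2 fold change was -0.38, and -0.17 without the first WT library. The part of this gate gene in the members' values was not tested. The first WT library was unlike the other LSK libraries. The WT pair had a Spearman correlation across genes of 0.978 and a chi-square of 47.7 per degree of freedom, against 0.990 and 7.70 for the KO pair, so LSK log2 fold changes below that turn their sign or move by over 1.5 times without the first WT library are given without it too.

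Promoters are shown for 5 members whose WT and KO libraries did not overlap in LSK cells, to let their upstream sequence be read beside their levels. Each line holds the 250 bases before the RefSeq start (GRCm38.p6), 5′ to 3′ along the gene's strand. Capitals mark the letters searched on both strands, namely CCGGAA for the core bound by ETS factors such as ERG, AGATAA for GATA factors, CACGTG for the E-box, TATAAA for the TATA box and CCAAT for the box of that name. A match is a description of letters and not a bound site. Prdm16 lies at chr4:154636874-154637123 on the minus strand, Fgd5 at chr6:91978715-91978964 on the plus strand, Tie1 at chr4:118489850-118490099 on the minus strand, Hlf at chr11:90390918-90391167 on the minus strand and Txnip at chr3:96557707-96557956 on the plus strand.
Prdm16: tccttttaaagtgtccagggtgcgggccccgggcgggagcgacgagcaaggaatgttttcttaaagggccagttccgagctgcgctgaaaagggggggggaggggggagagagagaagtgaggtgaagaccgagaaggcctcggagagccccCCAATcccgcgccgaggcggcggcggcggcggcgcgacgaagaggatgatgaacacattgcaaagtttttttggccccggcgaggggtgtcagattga
Fgd5: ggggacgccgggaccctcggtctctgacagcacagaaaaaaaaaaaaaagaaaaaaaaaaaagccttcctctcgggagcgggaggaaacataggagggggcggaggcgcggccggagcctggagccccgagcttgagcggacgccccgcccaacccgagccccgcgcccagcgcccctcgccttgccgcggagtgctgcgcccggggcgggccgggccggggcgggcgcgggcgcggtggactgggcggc
Tie1: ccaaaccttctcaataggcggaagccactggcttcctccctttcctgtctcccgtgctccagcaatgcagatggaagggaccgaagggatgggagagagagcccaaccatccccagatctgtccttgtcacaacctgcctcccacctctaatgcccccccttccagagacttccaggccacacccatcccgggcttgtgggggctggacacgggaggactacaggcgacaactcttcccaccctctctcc
Hlf: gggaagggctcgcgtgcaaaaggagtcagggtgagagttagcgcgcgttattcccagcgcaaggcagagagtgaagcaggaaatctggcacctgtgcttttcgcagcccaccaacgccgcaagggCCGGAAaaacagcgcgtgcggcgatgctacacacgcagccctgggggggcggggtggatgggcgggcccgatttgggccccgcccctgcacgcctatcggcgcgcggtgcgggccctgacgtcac
Txnip: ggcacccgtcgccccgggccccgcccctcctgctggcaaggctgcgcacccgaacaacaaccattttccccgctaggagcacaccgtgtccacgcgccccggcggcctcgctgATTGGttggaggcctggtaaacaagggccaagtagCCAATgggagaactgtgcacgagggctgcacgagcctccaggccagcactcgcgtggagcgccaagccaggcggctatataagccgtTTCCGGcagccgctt
Hlf held CCGGAA, Prdm16 held CCAAT, Txnip held CCAAT on either strand and CCGGAA on the minus strand, and Fgd5 and Tie1 held none of these letters in this window. RefSeq promoters were matched for 25 of the 34 members, with 31 promoters in all. CCAAT was found in 12 of the 31 (38.7%) against 33.8% of all 32851 promoters, CCGGAA in 3 (9.68%) against 12%, AGATAA in 3 (9.68%) against 9.99%, TATAAA in 2 (6.45%) against 12.4%, and CACGTG in 2 (6.45%) against 6.02%.

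The LSK comparison asks how the stem cell genes of this gate differ without Anp32b. No member passed the threshold of 0.05 on the adjusted p of edgeR's quasi-likelihood test, and 0% of the genes tested did, so differences are given as values. Anp32b itself did not pass, at a log2 fold change of -1.76 (adjusted p = 0.148, edgeR). A member that did not pass is therefore not shown to be unchanged. Of the 34 members 24 had a log2 fold change above 0 and 10 below, with a median of 0.21 against -0.0079 over all genes tested, where 48.6% lay above 0. The KO libraries both lay above both WT libraries for 13 members, where 17.7% of genes tested did so, and both below for 1 member, where 15.6% did. At an unadjusted p under 0.05 there were 10 members, all higher, where 2.29% of genes were higher and 2.21% lower at that level. In total 657 genes (4.5%) lay under that level. Without overlap and with a log2 fold change of at least 0.5 in size stood 3 members, Prdm16, Fgd5 and Esam, all higher, where 4.98% of genes were higher and 4.2% lower by that measure. DESeq2 called 15 genes and limma-voom 2, none of them members. The median was 0.23 without the first WT library, with 28 members above 0, and 0.25 without the second, with 22 above 0.

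Per kilobase of exon, the levels of the members differed widely in LSK cells. Txnip had the highest mean over the 4 libraries at 92.9 CPM (84.0 to 99.0), followed by Cd34 at 83.1 CPM (69.4 to 102), Angpt1 at 52.6 CPM and Erg at 50.8 CPM. The ranges of Txnip and Cd34 overlapped, as did those of Angpt1 and Erg. Igf2bp2 at 0.741 CPM and Slamf1 at 1.30 CPM had the lowest means.

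**Figure D1:**
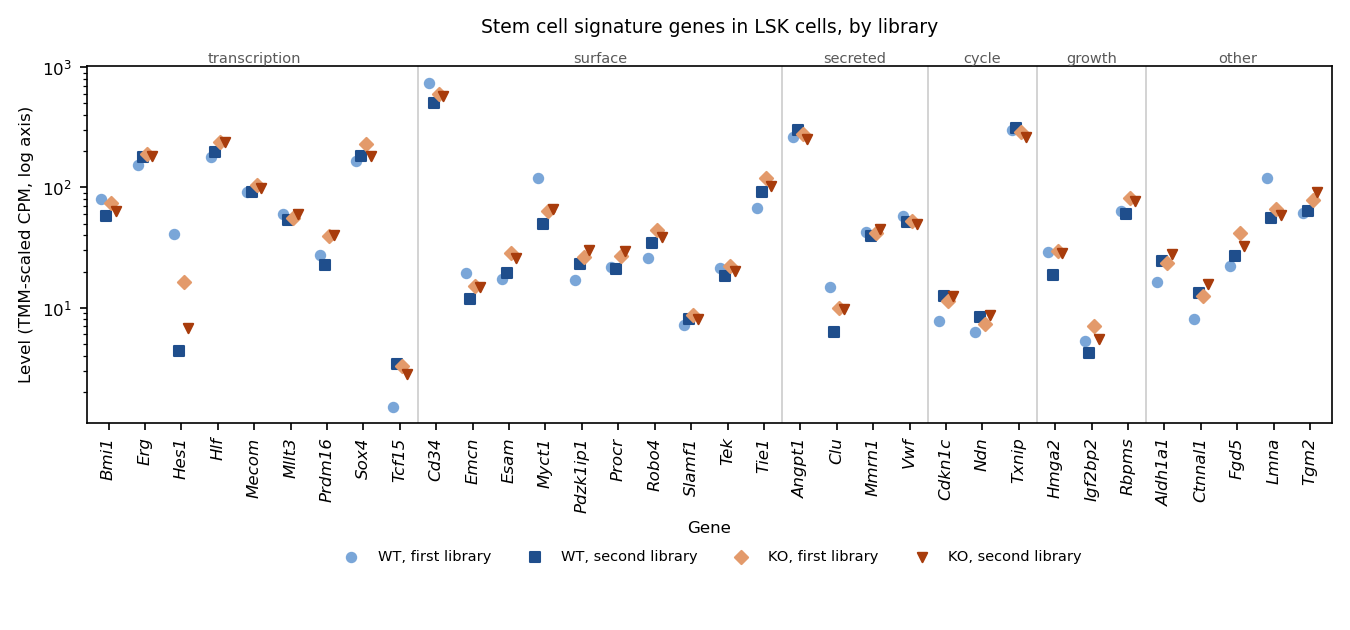
Level of each of the 34 members in the 4 LSK libraries, in TMM-scaled CPM on a log axis, with 1 symbol per library and genes grouped by role. KO symbols lie above both WT symbols for 13 genes (17.7% of all genes tested do so) such as Prdm16 and Fgd5, while the first WT library lies far above the others for Hes1, Lmna and Myct1.

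Among the transcription factors, Prdm16, which is needed to maintain stem cells, had the smallest unadjusted p of the members. It was read at 27.4 and 22.7 CPM in WT and at 39.4 and 40.2 CPM in KO libraries. The groups did not overlap, and the KO libraries lay close together (25.0 ± 3.31 against 39.8 ± 0.570 CPM, SD, n = 2 each; log2 fold change 0.67, SE 0.16; unadjusted p = 0.00397 and adjusted p = 0.986, edgeR). Its log2 fold change was 0.81 without the first WT library and 0.54 without the second. Hlf, a leucine zipper factor of stem cells, was read at 178 and 197 CPM in WT and at 239 and 237 CPM in KO libraries, again without overlap, a log2 fold change of 0.35 (SE 0.14).

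Mecom, which encodes the zinc finger factor EVI1, was read at 91.0 and 92.2 against 105 and 98.8 CPM, and the ETS factor gene Erg at 153 and 178 against 190 and 183 CPM. Both were higher in each KO library, by small amounts (log2 fold changes of 0.16 and 0.17, the latter 0.064 without the first WT library). Sox4 (0.24), Mllt3, a reader of acylated histones (0.031), Tcf15 (0.31) and the Polycomb gene Bmi1 (-0.00063) had overlapping groups. Without the first WT library Mllt3 was at 0.12, Tcf15 at -0.19 and Bmi1 at 0.25. Hes1, a target of Notch signaling, was read at 41.1 and 4.38 CPM in WT and at 16.5 and 6.77 CPM in KO libraries. The WT libraries were thus 9.38-fold apart and enclosed both KO libraries. The log2 fold change of Hes1 was -0.99 (SE 0.83), 1.39 without the first WT library and -1.84 without the second.

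Of the 10 surface genes 5 had KO libraries above both WT libraries, where 17.7% of all genes tested did. Esam, an adhesion molecule of stem and endothelial cells, was read at 17.2 and 19.5 CPM in WT and at 28.3 and 25.9 CPM in KO libraries (log2 fold change 0.56, SE 0.18, and 0.47 without the first WT library). Procr, the protein C receptor by which the most primitive cells are sorted, was read at 22.001 and 21.1 against 27.1 and 29.7 CPM (0.40, SE 0.17). Here the WT libraries differed little, and the value was 0.43 without the first. Robo4, a guidance receptor, was read at 26.1 and 34.2 against 44.4 and 38.96 CPM (0.47, SE 0.18), and Pdzk1ip1, a small membrane protein, at 17.02 and 22.97 against 26.2 and 30.02 CPM (0.50, SE 0.20). The first WT library was the lowest for both. Without it the values were 0.28 and 0.29, and without the second WT library 0.67 and 0.72.

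The TIE receptors were read beside each other, and the difference between them was not tested. Tie1 was read at 67.2 and 92.2 CPM in WT and at 120 and 104 CPM in KO libraries, without overlap (log2 fold change 0.49, SE 0.18, and 0.28 without the first WT library). Tek was read at 21.3 and 18.5 against 22.4 and 20.2 CPM, with overlapping groups (0.096, SE 0.19, 95% interval from -0.34 to 0.53, and 0.20 without the first WT library). Their 95% intervals overlapped, that of Tie1 running from 0.073 to 0.91. Per kilobase of exon the level of Tie1 was 13.7 to 24.4 CPM and that of Tek 3.92 to 4.76 CPM over the 4 libraries. Angpt1, which encodes the ligand of Tek, stood at 263 and 300 CPM in WT and at 279 and 252 CPM in KO libraries (-0.086, SE 0.15, and -0.18 without the first WT library), also with overlap.

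The sorting markers Slamf1 (log2 fold change 0.14) and Cd34 (-0.093) and the sialomucin gene Emcn (-0.060) had overlapping groups. Without the first WT library they were at 0.049, 0.21 and 0.36. Cd34 was read at 745 and 506 CPM in WT and at 600 and 573 CPM in KO libraries, so that the KO libraries lay between the WT libraries. Myct1, a membrane protein of stem and endothelial cells, was read at 119 and 49.3 CPM in WT and at 64.1 and 66.0 CPM in KO libraries. Its log2 fold change of -0.37 was 0.40 without the first WT library.

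Among genes that restrain growth, Txnip, an inhibitor of thioredoxin and of glucose uptake, was the member with both KO libraries below both WT libraries. It was read at 298 and 309 CPM in WT and at 290 and 262 CPM in KO libraries, a small difference (log2 fold change -0.14, SE 0.14). The cyclin-dependent kinase inhibitor gene Cdkn1c was read at 7.73 and 12.6 against 11.5 and 12.6 CPM, and Ndn, which encodes necdin, at 6.29 and 8.29 against 7.31 and 8.66 CPM, with overlap in both. Their log2 fold changes of 0.25 and 0.14 were -0.069 and -0.055 without the first WT library. The secreted proteins von Willebrand factor (Vwf, -0.088), multimerin (Mmrn1, 0.078) and clusterin (Clu, -0.11) also had overlapping groups, and without the first WT library they were at -0.010, 0.13 and 0.65.

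Of the remaining members, Fgd5, an exchange factor for CDC42 used as a stem cell reporter gene, was read at 22.4 and 26.9 CPM in WT and at 42.1 and 32.6 CPM in KO libraries. The groups did not overlap (24.6 ± 3.17 against 37.3 ± 6.71 CPM, SD, n = 2 each; log2 fold change 0.60, SE 0.19, and 0.47 without the first WT library). Tgm2, a transglutaminase, was read at 61.2 and 63.8 against 78.4 and 91.8 CPM (0.45, SE 0.14), and the RNA-binding protein gene Rbpms at 63.8 and 59.8 against 80.9 and 77.1 CPM (0.35, SE 0.13). For both, the WT libraries lay close together and the KO libraries above them. The fetal growth genes Hmga2 (0.27) and Igf2bp2 (0.38), the catenin-like gene Ctnnal1 (0.42) and the aldehyde dehydrogenase gene Aldh1a1 (0.33) were above 0 as well, and of these Igf2bp2 had groups without overlap. Without the first WT library Hmga2 was at 0.62, Ctnnal1 at 0.10 and Aldh1a1 at 0.064. Without the second WT library they were at -0.0082, 0.80 and 0.64. Lmna, the nuclear lamin, was read at 120 and 55.3 CPM in WT and at 65.7 and 59.6 CPM in KO libraries, with a log2 fold change of -0.49 that was 0.18 without the first WT library.

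The first WT library was the highest of the 4 for 8 members and the lowest for 16. Without it 10 members changed the sign of their log2 fold change, Hes1, Lmna, Myct1, Clu, Cd34, Emcn and Bmi1 upward and Cdkn1c, Ndn and Tcf15 downward, and 0 members passed, where 0.0926% of all genes passed higher and 0.146% lower. Leaving out the first or second KO library also gave 0 members, where 0.026% and 0% of genes passed higher and 0.00651% and 0% lower. Without the second WT library 5 members passed, where 2.45% of all genes passed higher and 2.96% lower. Tie1 (0.73, adjusted p = 0.0115) and Robo4 (0.67, adjusted p = 0.0445) were then higher, and Lmna (-0.95, adjusted p = 0.00158), Myct1 (-0.87, adjusted p = 0.00203) and Hes1 (-1.84, adjusted p = 0.0115) lower (edgeR). In that fit the lone WT library is assumed to vary like the KO pair.

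**Figure D2:**
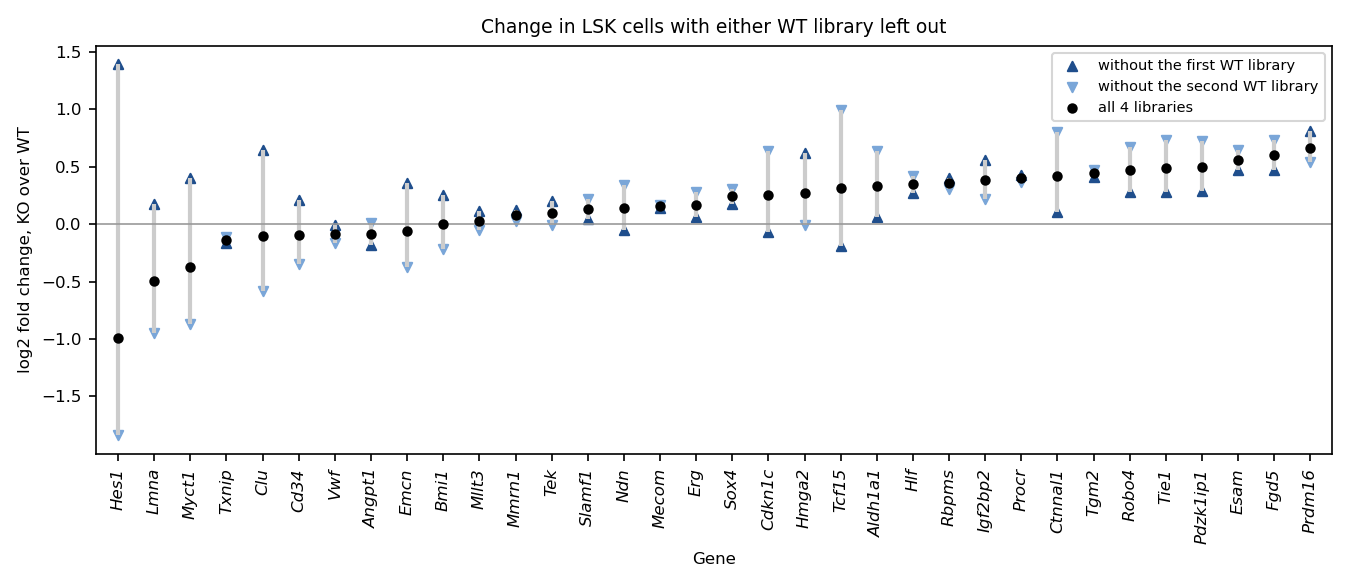
The log2 fold change of each member in LSK cells (KO over WT) with all 4 libraries (black), without the first WT library (upward triangles) and without the second (downward triangles), ordered by the first value. Hes1 runs from -1.84 to 1.39, while Prdm16, Fgd5, Esam, Tgm2 and Procr stay above 0.

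Genes of other kinds were read beside the members, and in bulk RNA fewer cells of a type and less RNA per cell cannot be told apart. With all 4 libraries 0 genes of the lists below passed the threshold in LSK cells (edgeR). Without the first WT library 1 did, the macrophage chitinase-like gene Chil3 (-1.24, adjusted p = 0.00776, edgeR), named after its value was seen. Without the second WT library 8 genes of dividing cells, 7 progenitor, 5 neutrophil and monocyte, 5 other stem cell, 4 erythroid, 4 p53, 2 stromal, 1 B cell and 1 T and NK cell gene passed. Of 44 other stem cell genes 3 were higher and 0 lower at an unadjusted p under 0.05. Above 0 lay 31 and below 13 (median 0.14, 0.10 without the first WT library and 0.21 without the second). Those with the smallest p were Hoxa5 (0.52), Tal1, a master factor of blood formation (0.63), Gimap1 (0.59) and Rarb, a retinoic acid receptor (1.05). Tal1 was at 0.38 and Gimap1 at 0.36 without the first WT library. Of 22 progenitor genes 1 was higher and 3 lower at that level, with 6 above 0 and 16 below. Their median was -0.16, 0.055 without the first WT library and -0.25 without the second. Mpo, the myeloperoxidase, stood at -0.54, Irf8 at -0.36, Csf1r at -0.34 and Cebpa at 0.44, and without the first WT library at -0.32, -0.23, -0.22 and 0.23 in that order.

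All 20 genes of dividing cells lay below 0, 4 of them at an unadjusted p under 0.05. The median of the 20 was -0.28, -0.047 without the first WT library and -0.46 without the second. The 4 were Ccnb1 at -0.59, Cdk1 at -0.34, Mki67 at -0.38 and Aurka at -0.47. Without the first WT library Ccnb1 was at -0.37 and Aurka at -0.17. The summed level of the 20 genes was 2854 to 3506 CPM in WT and 2487 to 2684 CPM in KO libraries. Of 16 neutrophil and monocyte markers 14 lay below 0, 7 of them at that level, with a summed level of 2058 to 2189 CPM in WT and 1520 to 1661 CPM in KO libraries. Of 6 tested stromal markers all lay below 0, 4 of them at that level, though Cxcl12 was at 0.49 without the first WT library. Bglap, 1 of the 4, was read at 0.917 and 1.05 CPM in WT and at 0.244 and 0.0698 CPM in KO libraries. It entered the test only through its WT libraries, where it is high, and had to differ. The summed level over the 8 stromal markers listed was 89.97 to 94.9 CPM in WT and 58.997 to 61.5 CPM in KO libraries. Megakaryocyte markers summed to 429 to 444 CPM in WT and 369 to 417 CPM in KO libraries. Plek alone held 344 to 358 and 276 to 323 CPM of this, and of 10 tested markers 4 lay above 0 and 6 below. In the same order B cell markers summed to 592 to 998 and 450.2 to 578 CPM. Cd74 alone held 560 to 950 and 414 to 538 CPM of this, and of 6 tested markers 2 lay above 0 and 4 below. Erythroid markers summed to 284 to 369 and 286 to 386 CPM, and T and NK cell markers to 122 to 182 and 126 to 155 CPM. The part of these lists in the values of the stem cell genes was not tested. Endothelial markers outside the list summed over 14 listed genes to 177 to 211 CPM in WT and 188 to 192 CPM in KO libraries. Of these, 8 of 10 tested lay above 0, and 1 of them, Sox18, at that level. Sox18 was read at 0.0655 and 0.381 CPM in WT and at 0.894 and 0.908 CPM in KO libraries. It entered the test only through its KO libraries, where it is high, and had to differ. The defining endothelial gene Cdh5 was read at 0.655, 0.0953, 0 and 0.140 CPM and Kdr at 0.813 to 1.31 CPM. Of 14 genes of p53 and its targets tested 2 were lower and 0 higher at an unadjusted p under 0.05. The median of the 14 was -0.055, -0.19 without the first WT library and 0.0043 without the second. Pmaip1 stood at -0.90, Trp53inp1 at -0.46, Zmat3 at 0.66 and Cdkn1a at -0.76. Without the first WT library, which held 247 CPM of Cdkn1a against 86.2 to 114 CPM in the others, Cdkn1a was at 0.12 and Trp53inp1 at -0.26.

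**Figure D3:**
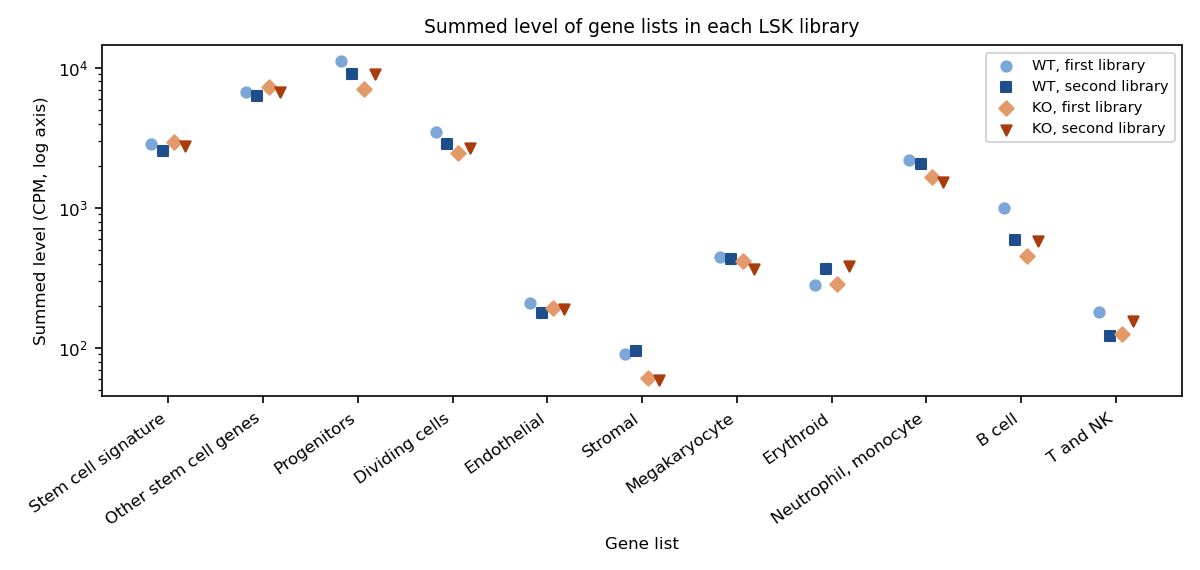
Summed CPM (log axis) of the 34 members and of 10 other gene lists in each LSK library. The lists of neutrophils and monocytes, dividing, stromal, megakaryocyte and B cells have both KO libraries below both WT libraries. Most of the megakaryocyte sum is Plek, and most of the B cell sum is Cd74. The list of other stem cell genes has both KO libraries above, and the members' sums lie between 2569 and 2944 CPM in all 4 libraries.

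In the leukemia line KU812 the question was how knockdown of ANP32B relates to the same genes. Of the 26 members tested 6 were called higher and 6 lower by the same threshold and test, where 7.53% of all genes tested rose and 9.06% fell, or 16.6% in all. The members' median log2 fold change was 0.023 against 0.0041 over all genes. CLU, ALDH1A1, ESAM, MECOM and MMRN1 rose, and CD34, CTNNAL1, TIE1, TXNIP, ANGPT1 and IGF2BP2 fell. HLF is the sixth of the higher calls, but it entered the test only through its shANP32B libraries, where it is high, and had to differ. Both shANP32B libraries lay above both shNC libraries for 10 members and below for 9, where 29.5% and 28.9% of genes did so. A log2 fold change above 0 was found for 13 of 26, where 50.4% of genes had one. HLF, HMGA2 and SLAMF1 are among both the 10 and the 13. Their shNC libraries alone were too low to be tested, so they entered through their shANP32B libraries, where they are high. Another 6 members were too low to test, FGD5, CDKN1C, EMCN, TCF15, ROBO4 and RBPMS, each with 0 to 13 counts per library.

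**Figure D4:**
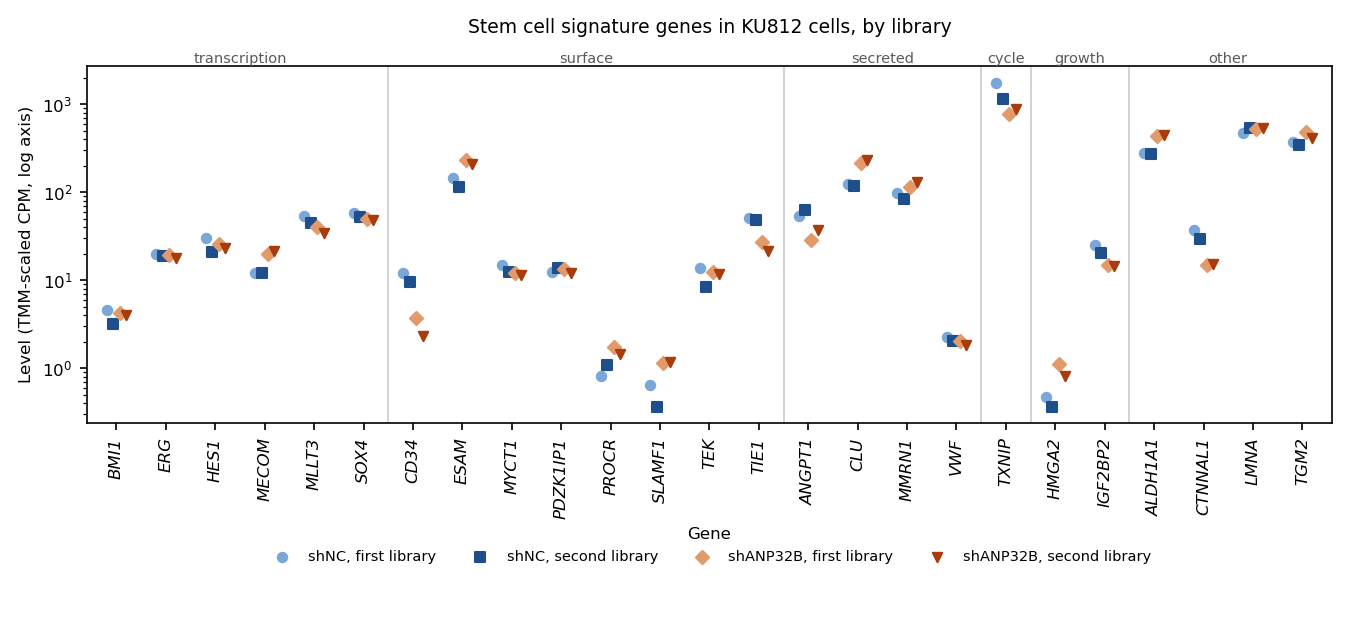
Level of 25 of the 26 tested members in the 4 KU812 libraries, in TMM-scaled CPM on a log axis, with 1 symbol per library and genes grouped by role. HLF is left out because 1 shNC library had 0 counts. The shANP32B symbols of CLU, ALDH1A1 and ESAM lie above both shNC symbols, and those of CD34, TIE1, CTNNAL1 and TXNIP below.

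Among the transcription factors MECOM rose. It was read at 11.9 and 12.1 CPM in shNC and at 19.9 and 21.3 CPM in shANP32B libraries, 1.72-fold higher without overlap (log2 fold change 0.78, SE 0.18, adjusted p = 0.00887, edgeR). HLF was low, with 2 and 0 counts in shNC and 19 and 26 in shANP32B libraries. Summed over libraries and scaled, the ratio was 23.3 with a 95% counting interval from 6.09 to 198, and since HLF entered the test only through its shANP32B libraries its call (adjusted p = 0.0108, edgeR) is a description. Without the second shANP32B library both lost their calls (adjusted p = 0.0860 for MECOM and 0.0935 for HLF). The fitted log2 fold change of HLF was 4.39, 7.49 without the first shNC library and 3.54 without the second. MLLT3 (-0.40), SOX4 (-0.18), HES1 (-0.059), ERG (-0.049) and BMI1 (0.085) did not pass, and the sign of ERG turned when scaled by library totals. MLLT3 passed without the second shNC library (-0.53, adjusted p = 0.00423) and with a replicate block (adjusted p = 0.0229, edgeR).

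Of the surface genes ESAM rose, from 146 and 113 CPM in shNC to 232 and 207 CPM in shANP32B libraries (log2 fold change 0.76, SE 0.13, adjusted p = 0.00164). CD34, the sialomucin by which human stem and progenitor cells are isolated, fell from 11.9 and 9.43 CPM to 3.70 and 2.30 CPM. This was 3.56-fold lower (log2 fold change -1.83, SE 0.29, adjusted p = 0.00106, edgeR). TIE1 fell from 50.7 and 48.3 CPM to 26.9 and 21.3 CPM, 2.05-fold lower (-1.04, SE 0.15, adjusted p = 5.56e-04, edgeR). Its family member TEK was read at 13.7 and 8.38 CPM in shNC and at 12.5 and 11.9 CPM in shANP32B libraries, with overlap (0.14, SE 0.24, 95% interval from -0.37 to 0.66).

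SLAMF1 (log2 fold change 1.19) and PROCR (0.73) were higher in both shANP32B libraries but did not pass. Their levels were 0.366 to 1.17 CPM and 0.822 to 1.73 CPM over the libraries, and SLAMF1 entered the test through its shANP32B libraries. MYCT1 (-0.20) and PDZK1IP1 (-0.039) did not pass. The sign of PDZK1IP1 turned when scaled by library totals.

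Of the secreted proteins CLU and MMRN1 rose and ANGPT1 fell. CLU, the chaperone clusterin, had the smallest p of the members, at 122 and 118 CPM in shNC and 214 and 230 CPM in shANP32B libraries (log2 fold change 0.89, SE 0.11, adjusted p = 1.42e-04, edgeR). ANGPT1, the ligand of TEK, fell from 53.2 and 61.9 CPM to 28.9 and 37.4 CPM, 1.74-fold lower (-0.80, SE 0.15, adjusted p = 0.00360). MMRN1 rose by a smaller amount (97.6 and 84.0 to 115 and 129 CPM; log2 fold change 0.43, adjusted p = 0.0284, edgeR). It lost its call without the second shNC library (adjusted p = 0.0531) and without the first or second shANP32B library (0.0553 and 0.314). VWF stood at -0.14 and 1.85 to 2.25 CPM.

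TXNIP fell from 1755 and 1151 CPM in shNC to 766 and 868 CPM in shANP32B libraries, without overlap although the shNC libraries lay apart (log2 fold change -0.83, SE 0.15, adjusted p = 0.00238, edgeR). Its value was -0.50 without the first shNC library and -1.11 without the second, past the threshold in both. IGF2BP2, an mRNA-binding protein, fell from 22.6 ± 3.61 to 14.5 ± 0.296 CPM (SD, n = 2 each; -0.64, adjusted p = 0.0255, edgeR). It lost its call without the first shNC library (adjusted p = 0.0972) or without the first or second shANP32B library (0.0958 and 0.123). HMGA2 stood at 1.20 and did not pass, at 0.366 to 1.12 CPM, and it entered the test through its shANP32B libraries, where it is high.

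ALDH1A1, the aldehyde dehydrogenase whose activity marks stem cells in dye assays, rose from 278 and 273 CPM to 429 and 440 CPM, with replicates close together (log2 fold change 0.66, SE 0.098, adjusted p = 6.65e-04, edgeR). CTNNAL1 fell from 36.9 and 29.2 CPM to 15.0 and 15.4 CPM, 2.18-fold lower (-1.12, SE 0.17, adjusted p = 6.54e-04, edgeR). TGM2 (0.32) was higher in both shANP32B libraries with an adjusted p of 0.0596 (edgeR), and 0.0435 with DESeq2. LMNA (0.088) had overlapping groups.

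The count of members called moved with the libraries used. HLF, which entered the test only through its shANP32B libraries and had to differ, is counted as a rise in the fits that follow, except without the second shANP32B library. Without the first shNC library 7 rose and 5 fell, where 8.73% and 9.92% of genes did. Without the second shNC library 5 rose and 7 fell, where 10.2% and 12.6% did. Without the first shANP32B library 5 rose and 5 fell, where 4.12% and 5.12% did, and without the second 3 rose and 5 fell, where 3.23% and 4.83% did.

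Of 34 other stem cell genes tested in KU812 cells 5 rose and 3 fell (median 0.14). The tetraspanin gene CD81 rose by 0.58 on the log2 scale, while NEO1, the receptor neogenin, fell by 2.29 and the nuclear receptor gene RORA by 1.45. Of 12 progenitor genes 0 rose and 3 fell, namely MS4A3 (-2.35), CEBPA (-1.84) and CD48 (-1.62). Still, 7 of the 12 lay above 0 (median 0.13). Of 20 genes of dividing cells 12 fell and 0 rose (median -0.38), with BUB1 at -0.85, CDK1 at -0.68, CENPF at -0.54 and KIF11 at -0.55. Of 14 genes of p53 and its targets 1 rose, BTG2 (2.18), and 3 fell, CCNG1 (-0.54), GADD45A (-0.46) and MDM2 (-0.38). Among 8 tested endothelial markers outside the members 3 rose, KDR (1.67), STAB1 (1.49) and FLT4 (1.68), and 0 fell. Megakaryocyte markers counted 4 up and 1 down of 7, and erythroid markers 0 up and 7 down of 11. Neutrophil and monocyte markers counted 4 up and 0 down of 8, and stromal markers 2 up and 0 down of 8. COL3A1, 1 of these 2, was read at 0.0357 and 0.163 CPM in shNC and at 0.540 and 1.05 CPM in shANP32B libraries. It entered the test only through its shANP32B libraries, where it is high, and had to differ. The part of these lists in the members' values was not tested.

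**Figure D5:**
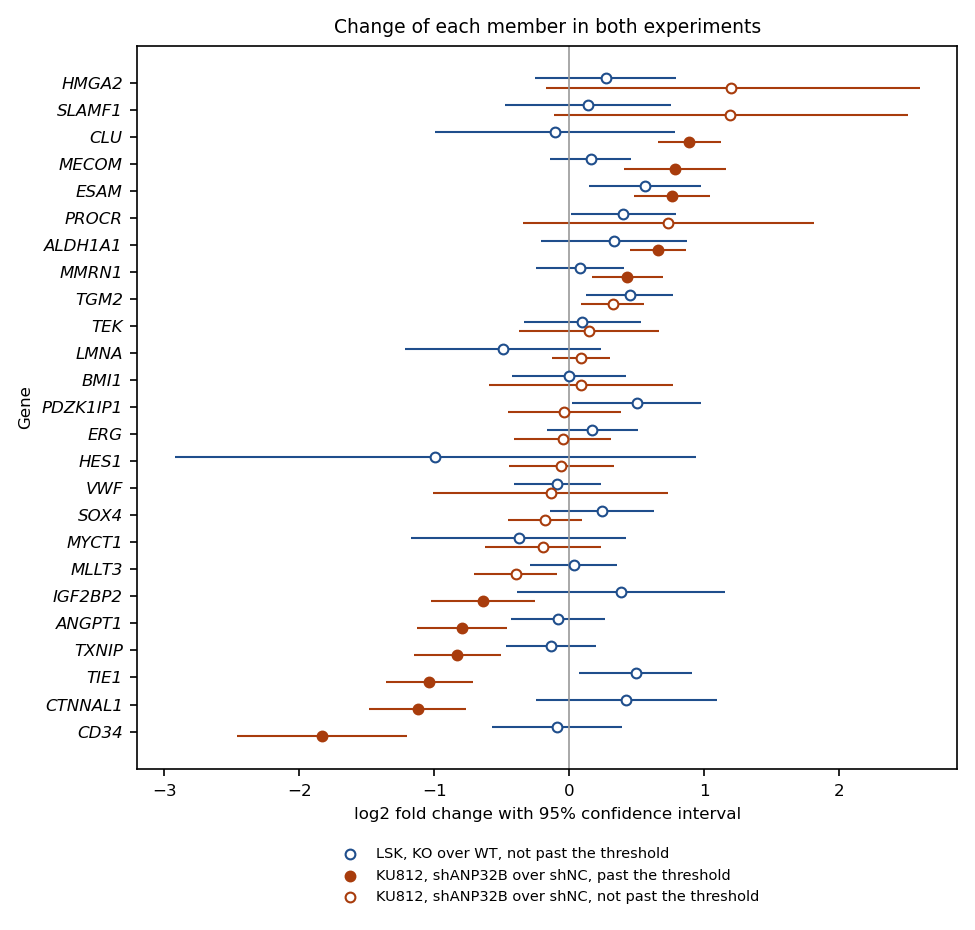
Log2 fold change of 25 members in LSK cells (KO over WT, blue) and KU812 cells (shANP32B over shNC, brown), with 95% confidence intervals; filled points passed the threshold. HLF, the other member tested in both, is left out for its wide interval. All LSK points are open. Above 0 in LSK and below in KU812 cells lie 7 members, such as TIE1, CTNNAL1 and IGF2BP2, and 3 lie the other way, such as CLU.

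The experiments share no libraries. Of the 26 members tested in both, 10 were above 0 in both, 6 below 0 in both, 7 above 0 in LSK and below in KU812 cells, and 3 the reverse. HLF, HMGA2 and SLAMF1, which entered the KU812 test through their shANP32B libraries, are among the 10. The difference between the experiments was tested as an interaction over 10771 shared symbols, of which 2.22% passed. Of 32 members tested 4 passed, TIE1, CD34 and CTNNAL1 with a log2 fold change lower in KU812 than in LSK cells, as for 1.33% of symbols, and HLF with a higher one, as for 0.891% (edgeR). Each of the 4 lost its call without at least 1 library. ESAM and MECOM, above 0 in both experiments, had differences of 0.21 (SE 0.22) and 0.64 (SE 0.18) that did not pass.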

How the data were processed

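Each library's table holds whole-number counts by gene symbol, deposited by the authors without normalization, as seen from the file headers and values. HISAT2, TopHat, Cufflinks and DESeq, with GRCm38 and GRCh38, appear in the submitters' processing notes. The sources used here name no counting tool, strand setting or annotation. Exons of 9 mouse members overlap a gene on the opposite strand (GENCODE M21), which cannot be told apart without strand, and 3 of these (Hmga2, Tgm2 and Txnip) overlap a listed gene.

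LSK and KU812 libraries were fitted separately with edgeR 4.0.16 (R 4.3.3; filterByExpr, TMM, quasi-likelihood test). Adjusted p-values follow Benjamini-Hochberg across every gene tested, with a threshold of 0.05. The SE is the unmoderated coefficient divided by the square root of F. The interaction was 1 fit over all 8 libraries. Alternatives used DESeq2 1.42.0, limma 3.58.1, library totals, no filter, a replicate block and each library left out, and the limma fit was chosen after seeing the data. The fits were also run on counts simulated from their own fitted spread, and the outcome is not given here.

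Members and gene lists were chosen with earlier results of these data known. Members given by library were, in LSK cells, the 10 with the smallest p and those without overlap and with a log2 fold change of at least 0.5 in size, in KU812 cells the 10 with the smallest p past the threshold, and members of 1 receptor family or of 1 species. Other lists are shown by up to 4 genes with the smallest p, and 1 gene that this rule takes is not reported here. Mecom, Erg, Hes1, Cd34, Myct1, Txnip, Angpt1, Cdkn1c and Lmna in LSK cells and MMRN1 in KU812 cells are shown by library besides, chosen after their values were seen. Counting intervals cover counting error only. Promoter sequences are from RefSeq.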

Additional observations from a re-analysis of the deposited data

Results flagged for a closer look

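For 4 members the change in KU812 cells differed from that in LSK cells by the interaction test (edgeR, n = 2 libraries per group). The difference (KU812 minus LSK, log2) was 4.01 for HLF (SE 0.66, adjusted p = 0.0113), -1.51 for TIE1 (SE 0.24, adjusted p = 0.0132), -1.72 for CD34 (SE 0.32, adjusted p = 0.0217) and -1.53 for CTNNAL1 (SE 0.34, adjusted p = 0.0467). The KU812 value of HLF rests on 2 and 0 counts in the shNC libraries, so the size of its difference depends on the fit and is no measure of a fold. The direction was the same with every library left out in turn, and every gene lost its call without at least 1 library. HLF lost it without the second shANP32B library (adjusted p = 0.0551). TIE1 lost it without the first or second KO library (0.0759 and 0.0546) or the second shANP32B library (0.0715). CD34 lost it without the first or second KO library (0.100 and 0.0990), the first shNC library (0.0904) or the second shANP32B library (0.114). CTNNAL1 kept it only without the second WT library (0.00773) and ranged up to 0.208 without the others. The HLF difference was 6.72 without the first shNC library, and 3.19 without the second. Species, cell type and mode of loss differ together between the experiments and cannot be told apart.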

How the results depend on the processing

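In LSK cells 0 genes passed with all libraries, 15 with DESeq2, 15 with the replicate block, 2 with limma-voom and 0 to 830 with each library left out, and members past the threshold ran from 0 to 5. In KU812 cells 2741 genes passed with all libraries, 4164 with the replicate block and 1413 to 4047 with each library left out, and 8 to 14 members over all alternatives. Scaled by library totals 1474 genes rose and 1182 fell there, against 1244 and 1497. For the interaction 239 genes passed, 570 with DESeq2 and 38 to 719 with each library left out, and 0 to 7 members.

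Signs turned for Bmi1 (0.048 by library totals, 0.017 with the replicate block, 0.0081 with limma-voom) and Clu (0.012 with the replicate block) in LSK cells, and for ERG (0.0064) and PDZK1IP1 (0.018) by library totals in KU812 cells. With each library left out in turn the log2 fold changes ran from -0.18 to 0.0085 for Angpt1, -0.22 to 0.25 for Bmi1, -0.35 to 0.21 for Cd34, -0.069 to 0.63 for Cdkn1c, -0.59 to 0.65 for Clu, -0.38 to 0.36 for Emcn, -1.84 to 1.39 for Hes1, -0.0082 to 0.62 for Hmga2, -0.95 to 0.18 for Lmna, -0.052 to 0.12 for Mllt3, -0.87 to 0.40 for Myct1, -0.055 to 0.34 for Ndn, -0.19 to 1.00 for Tcf15 and -0.0047 to 0.20 for Tek in LSK cells. In KU812 cells they ran from -0.16 to 0.36 for BMI1, -0.30 to 0.22 for HES1, -0.12 to 0.018 for PDZK1IP1 and -0.17 to 0.54 for TEK. The cause was not tested.

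Replicate numbers are only shared numbers. The deviations of same-numbered libraries correlated at -0.078 in LSK and 0.17 in KU812 cells across genes, and the replicate block added calls for TGM2 and MLLT3 (14 members). DESeq2 gave no adjusted p for HLF and HMGA2 in KU812 cells.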
